A study of Mus musculus with 6 samples.

Results

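The genes described here encode the nuclear-encoded subunits of the mitochondrial respiratory chain and ATP synthase, measured in regulatory T cells (Tregs) from the bone marrow (BM) of leukemic and healthy mice. Members were found by name alone, as all rows whose symbol starts with Nduf and a letter a, b, c, s or v with a number (complex I), equals Sdha, Sdhb, Sdhc or Sdhd (complex II), or starts with Uqcr (complex III), Cox4 to Cox8 (complex IV) or Atp5 (complex V). The pattern found 85 of 36930 features, with 37 in complex I, 4 in complex II, 8 in complex III, 18 in complex IV and 18 in complex V. It leaves out Ndufab1 and Cyc1, which also encode subunits, and it takes in Atp5c1-ps, a pseudogene, Atp5s and Atp5sl, which are not subunits of the enzyme, and Cox7a2l, a factor of supercomplexes. Features whose mean over all libraries reached 1 RPKM were tested, which kept 78 of the 85 members and 13923 features in all.

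Tregs came from 3 CML mice and 3 naive mice, with 1 library per mouse. All 6 mice had the strain and genotype Foxp3-DTR-GFP, in which the Foxp3 locus drives a diphtheria toxin receptor fused to GFP, and the labels give an age of 8 weeks for every sample. CML mice were non-irradiated Foxp3-DTR-GFP recipients that received LSKs, the stem and progenitor fraction of BM, after 2 transductions with BCR-ABL1-GFP, and their Tregs were taken at day 15. Naive mice carried the same Foxp3 allele and received no leukemia. The leukemic cells and the Tregs therefore both carried GFP, and sorted bulk cells were measured, so that fewer cells expressing a gene and less RNA per cell cannot be told apart.

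The respiratory chain passes electrons from NADH (complex I) and succinate (complex II) through coenzyme Q to complex III, then by cytochrome c to complex IV, which reduces oxygen. Complexes I, III and IV pump protons out of the matrix, and complex V lets them return and makes ATP. Most subunits are encoded in the nucleus and imported, while a small core of complexes I, III, IV and V is encoded by mitochondrial DNA. Tregs are known to rely on oxidative phosphorylation for their suppressive function more than activated effector T cells do.

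Promoters were not used by the name pattern and were searched for letters of known regulators. RefSeq promoter windows of 300 bases around the transcription start (GRCm38.p6) were at hand for 65 of the 78 tested members, 71 windows in all. They were searched on both strands for letters bound by 6 factors known from respiratory genes: NRF1 (GCGCNTGCG), GABPA (CCGGAAG), YY1 (AAGATGGCG), ESRRA (TCAAGGTCA), CREB (TGACGTCA) and SP1 (GGGCGG). No motif contains another. The NRF1 letters stood in 26 of the 71 windows (36.6%), against 13.1% of 12227 windows of all tested genes and 6.3% of all 32851 windows. The YY1 letters stood in 9 windows (12.7%, against 3.0% and 1.4%), and the GABPA letters in 16 (22.5%, against 18.0% and 8.9%). The SP1 letters went the other way against tested genes only, with 27 windows (38.0%) against 59.7% of their windows and 35.7% of all windows. CREB letters were found in 4 windows (5.6%, against 3.0% and 1.8%) and ESRRA letters in 2 (2.8%, against 0.3% and 0.4%). Of the 65 members, 11 had none of the 6 motifs. A match is a description of letters, not a binding site. The 24 members with the NRF1 letters had a median log2 fold change, CML over naive, of -0.22 and the 41 without them one of -0.065, a difference that was not tested.

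**Figure D1:**
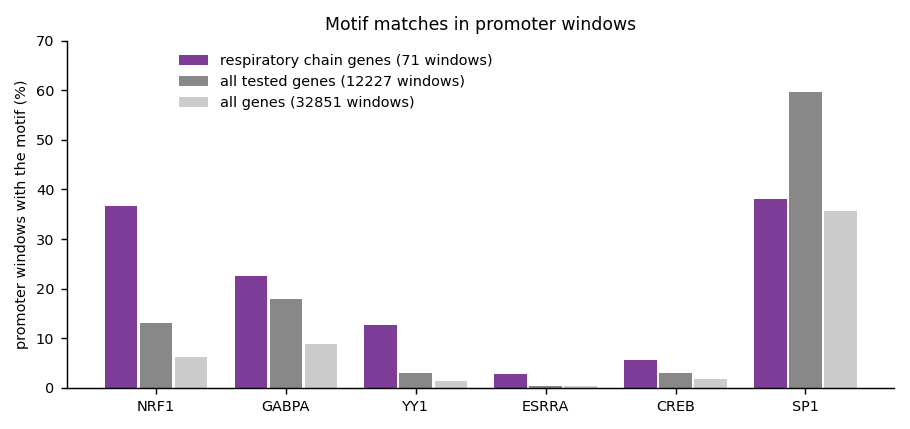
Share of promoter windows, in percent, that hold the letters of each of 6 motifs on either strand, for the 71 windows of tested respiratory chain genes, the windows of all tested genes and all windows. NRF1 and YY1 letters were more frequent in the respiratory chain genes than in either background, and SP1 letters were less frequent than in tested genes.

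4 windows are shown because their genes carry the results below, namely Atp5f1 and Ndufb6 with the largest log2 fold changes of complexes V and I, Atp5h with the lowest p of all members, and Sdhd, whose window holds 4 of the 6 motifs. Each is written 5′ to 3′ on the strand of the gene, with matched motif letters of either strand in capitals. The window of Atp5f1, named Atp5pb in RefSeq, lies on the minus strand at chr3:105959214-105959513 and holds the SP1 letters 2 times. The window of Ndufb6 lies on the minus strand at chr4:40279372-40279671 and holds GABPA letters followed by SP1 letters 2 times. The window of Atp5h lies on the minus strand at chr11:115419870-115420169 and holds NRF1 and then GABPA letters. The window of Sdhd lies on the minus strand at chr9:50603800-50604099 and holds, in this order, letters of NRF1, GABPA, SP1 and ESRRA.
Atp5f1: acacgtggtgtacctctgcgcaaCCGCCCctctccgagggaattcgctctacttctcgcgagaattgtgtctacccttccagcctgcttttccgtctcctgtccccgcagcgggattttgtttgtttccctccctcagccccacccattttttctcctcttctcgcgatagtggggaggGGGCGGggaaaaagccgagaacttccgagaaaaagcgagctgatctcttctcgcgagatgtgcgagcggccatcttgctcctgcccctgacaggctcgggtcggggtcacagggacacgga
Ndufb6: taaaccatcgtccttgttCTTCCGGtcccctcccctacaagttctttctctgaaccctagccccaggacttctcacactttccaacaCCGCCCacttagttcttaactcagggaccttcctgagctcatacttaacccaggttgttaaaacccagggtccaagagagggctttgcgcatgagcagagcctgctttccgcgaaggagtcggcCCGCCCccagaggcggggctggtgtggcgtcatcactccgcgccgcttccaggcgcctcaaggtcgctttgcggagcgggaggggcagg
Atp5h: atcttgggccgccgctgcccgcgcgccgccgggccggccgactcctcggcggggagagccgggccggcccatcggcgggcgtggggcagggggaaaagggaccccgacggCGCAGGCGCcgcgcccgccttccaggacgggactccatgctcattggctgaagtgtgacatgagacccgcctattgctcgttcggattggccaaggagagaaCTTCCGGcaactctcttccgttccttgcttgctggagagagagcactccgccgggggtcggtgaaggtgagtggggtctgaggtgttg
Sdhd: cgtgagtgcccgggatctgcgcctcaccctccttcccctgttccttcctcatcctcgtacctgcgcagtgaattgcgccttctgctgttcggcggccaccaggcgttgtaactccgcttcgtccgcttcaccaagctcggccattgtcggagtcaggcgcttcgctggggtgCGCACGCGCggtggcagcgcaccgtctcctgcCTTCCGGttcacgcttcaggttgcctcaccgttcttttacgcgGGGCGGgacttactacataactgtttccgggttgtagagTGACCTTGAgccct

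Depth differed between the libraries and bears on every value below. The deposited values are read as RPKM, reads per kilobase of coding sequence scaled to the size of the library. Multiplied by the GENCODE coding length, they fell on whole reads within 0.05 for 61 of the 77 tested members with such a length, which gave the reads behind each value. The scaling rested on 7613433, 829201 and 2286142 reads in CML replicates 1 to 3 and on 5188358, 8771718 and 9751132 reads in naive replicates 1 to 3. CML replicate 2 was thus the shallowest library, and its 10 highest features held 50.7% of all its signal, against 28.5% to 31.3% elsewhere. Over the 63 members with recovered reads, the median reads per gene were 158, 15 and 62 in CML replicates 1 to 3 and 109, 227 and 190 in naive replicates 1 to 3. In CML replicate 2, 20 of these genes rested on fewer than 10 reads. The genes are short, with a median coding length of 396 bases against 1020 for all tested features with recovered reads. The coding exons annotated under the names of 14 members overlap an exon of another gene. Intervals given for single libraries cover counting error only, because amplified reads are not independent molecules.

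The labelled cell type was checked against markers. All 8 Treg markers were present, with summed levels of 1679 to 2350 RPKM in CML libraries and 1672 to 1831 in naive libraries. Erythroid markers summed to 35.6 to 205.9 RPKM in CML and 5.0 to 29.6 in naive libraries. Neutrophil markers summed to 10.8, 209.6 and 221.5 RPKM in CML replicates 1 to 3 and to 25.8 to 53.9 in naive libraries, with Mmp8 at 0. Monocyte markers ranged from 44.6 to 111.5 in CML and 84.5 to 89.0 in naive libraries, and stem cell markers from 13.6 to 24.4 and 14.8 to 20.4. CD8 markers ranged from 51.1 to 74.2 and 26.2 to 58.7, and B cell markers from 357.5 to 502.2 and 484.4 to 628.6, nearly all of it Ighm, with Ebf1 at 0. The part of other cell types in the values of the respiratory chain genes was not tested.

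No change of a respiratory chain gene was detectable between Tregs of CML and naive mice at this depth and with 3 mice in each group. No member was called at an adjusted p under 0.05 and a fold of at least 1.5 (limma on log2(RPKM + 1), Benjamini-Hochberg over all features), and the lowest adjusted p of a member was 0.404. The same rule called 24 of 13923 features, 0.172%. The median log2 fold change of the 78 members, CML over naive, was -0.097, against -0.177 for all tested features, and it lay at 0.004 when libraries were brought to the same sum without their highest features. The quartiles of the members were -0.32 and 0.16, and 66 of 78 changed by less than 1.5-fold in the estimate, as did 68.94% of all features.

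The mean log2 level over the members was 5.40, 5.07 and 5.61 in CML replicates 1 to 3 and 5.47, 5.57 and 5.31 in naive replicates 1 to 3. CML replicates 2 and 3 were thus the lowest and the highest of all 6, on either side of the 3 naive libraries. The group means of 5.36 ± 0.27 in CML and 5.45 ± 0.13 in naive Tregs (SD, n = 3) differed by less than the spread between libraries.

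**Figure D2:**
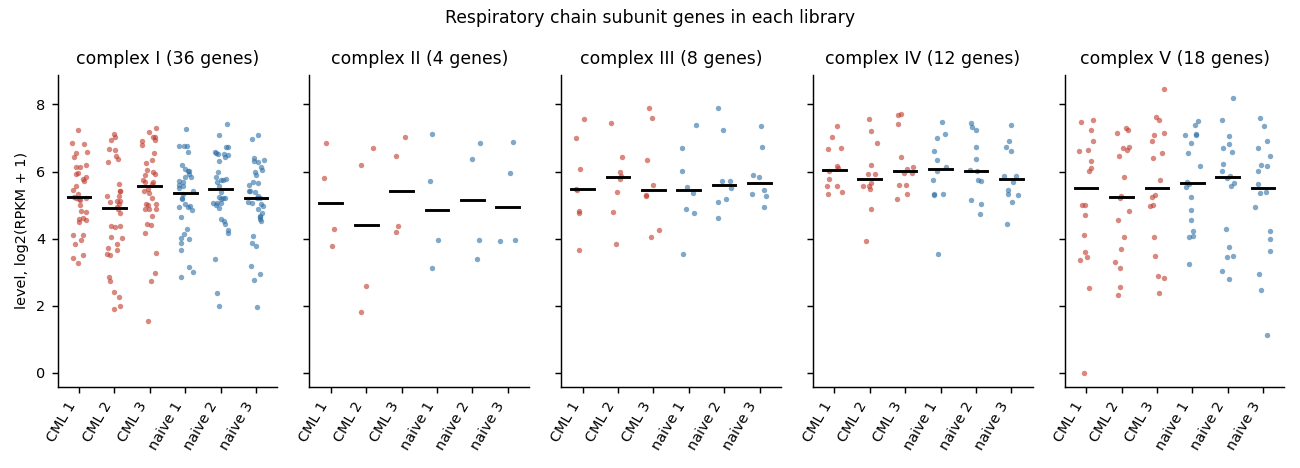
Level of every tested gene, as log2(RPKM + 1), in each of the 3 CML (red) and 3 naive (blue) libraries, by complex, with the median as a black bar. The levels cover the same range in all 6 libraries, and complexes I and II lie lowest in CML replicate 2.

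At an unadjusted p under 0.05 with a fold of at least 1.5, 1 member was higher in CML Tregs, Ndufb6, against 2.61% of all features, and 2 were lower, Ndufb3 and Atp5h, against 5.94%. Every CML library lay above every naive library for 3 members (3.85%), Atp5f1, Atp5e and Cox5b, where 4.84% of all features did so. Every CML library lay below every naive library for 4 members (5.13%), Atp5h, Atp5l, Atp5o and Ndufb3, where 12.2% of all features did so. These counts moved with the scaling. With libraries set to the same 75th percentile 7 members lay above (8.97%, against 6.49% of all features) and 4 below (5.13%, against 11.23%). At the same sum without the highest features 10 lay above (12.82%, against 7.2%) and 4 below (5.13%, against 10.17%), and after quantile normalization 6 lay above (7.69%, against 8.88%) and 3 below (3.85%, against 9.12%). Atp5f1 and Atp5e lay above and Atp5h and Ndufb3 below under all 4 scalings. Uqcrc1, Cox5a, Ndufa13 and Ndufc2 lay above and Ndufv1 below under each of the 3 other scalings, but their groups overlapped in the values as deposited. Ndufb3, Atp5h and Atp5o are named because of these values and not by role.

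The estimates also gave bounds on a change. The 95% interval of the log2 fold change lay between -1 and 1, a change of less than 2-fold in either direction, for 37 of 78 members (47.4%), against 29.4% of all features. The members were also the higher expressed genes, with a median level of 43.8 RPKM in CML and 44.7 in naive Tregs against 12.2 and 13.4 for all features. For the other 41 members the interval reached a 2-fold change.

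**Figure D3:**
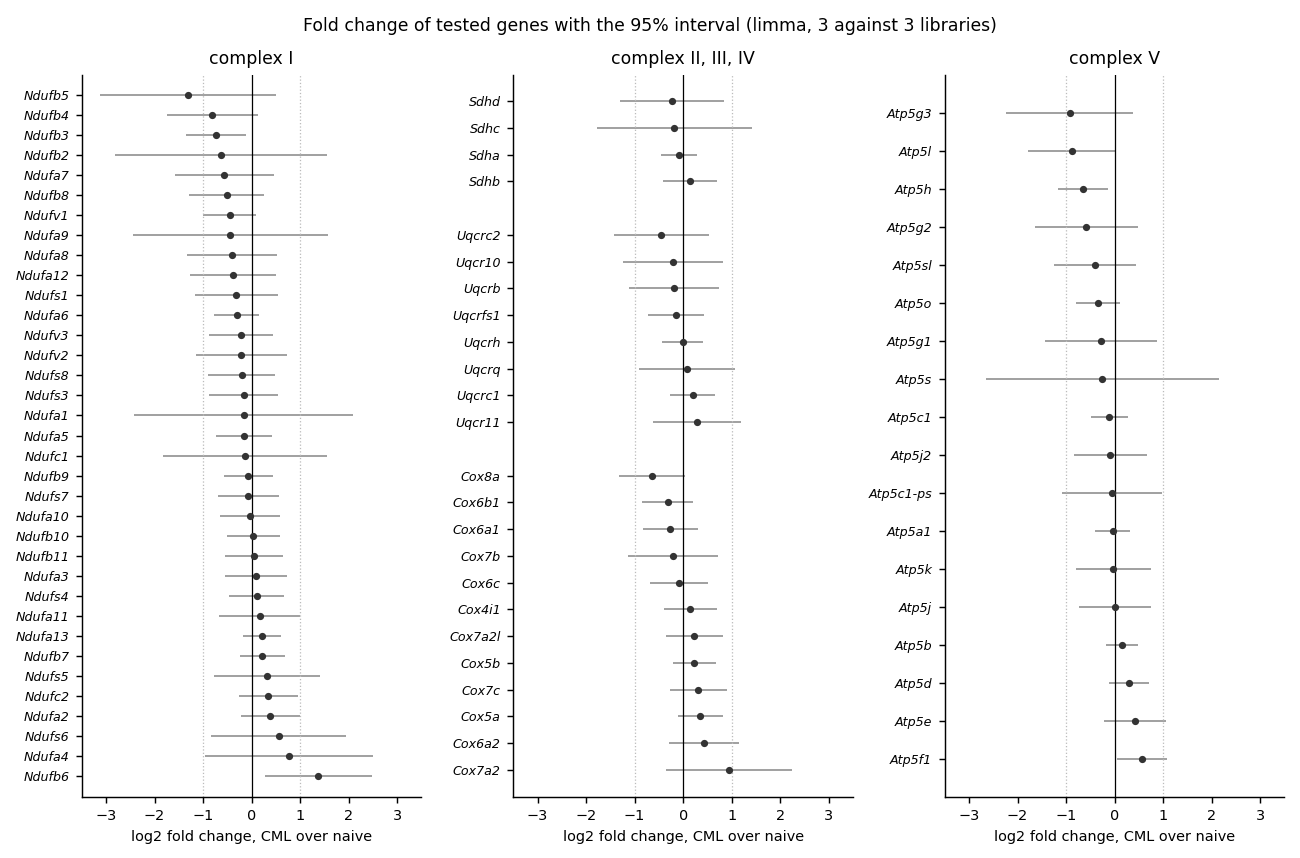
Log2 fold change of 77 of the 78 tested genes, CML over naive, with its 95% interval from limma, by complex and in order of size, with dotted lines at a 2-fold change. The intervals of most genes span 0, and the wide ones include Ndufa1 and Ndufb2, which have 1 read in CML replicate 2.

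Complex I, the NADH dehydrogenase, showed no called gene among 36 tested. Of the 36, 23 (63.9%) lay below 0, where 64.3% of all features did so. The median log2 fold change was -0.16, against -0.18 for all features. Its naive levels ranged from 7.97 RPKM for Ndufs6, a small accessory subunit, to 153 for Ndufa6, an accessory subunit of the matrix arm. The nuclear-encoded core, which binds NADH and carries the electrons over iron-sulfur clusters, lay below 0 in the 6 genes given here. Ndufv1, the NADH-binding subunit, measured 22.3, 19.9 and 28.5 RPKM in CML and 28.0, 37.2 and 32.5 in naive libraries. The groups overlapped by 1 library each, and the log2 fold change was -0.46 ± 0.24 (SE, adjusted p = 0.581 by limma). Ndufs1, Ndufs3, Ndufs7, Ndufs8 and Ndufv2, also of the core, had log2 fold changes from -0.32 to -0.07, with adjusted p-values of 0.779 to 0.949 in limma. Without CML replicate 2, Ndufs1, Ndufs7 and Ndufv2 lay above 0 at 0.03, 0.20 and 0.31, and Ndufs7 also turned positive under 2 of 3 other scalings.

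The widest differences in complex I fell on accessory subunits of the membrane arm. Ndufb6 measured 21.7, 37.4 and 28.3 RPKM in CML libraries and 6.97, 23.0 and 6.63 in naive libraries. Naive replicate 2 reached the CML values, and the other naive libraries lay well below them. Its log2 fold change was 1.38 (95% interval 0.27 to 2.48, adjusted p = 0.422 in limma), the largest of all members. Its coding exons overlap an exon of Smim27 on the other strand, and the library kit does not keep the strand, so the reads of both genes cannot be told apart. Ndufa4 measured 56.4, 19.4 and 40.4 RPKM in CML and 6.19, 20.6 and 63.0 in naive libraries. It carries a complex I name but belongs to complex IV, and its naive values spanned all CML values.

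Ndufb3 measured 16.3, 15.3 and 20.8 RPKM in CML and 31.8, 35.1 and 22.8 in naive libraries. All CML values lay below all naive values, with a log2 fold change of -0.73 (95% interval -1.35 to -0.12, adjusted p = 0.439 in limma). The value of CML replicate 2 rested on 4 reads, with a counting interval of 4.17 to 39.2 RPKM that covers the naive range. Ndufb4 measured 14.5, 6.19 and 5.61 RPKM in CML and 15.3, 17.0 and 12.6 in naive libraries, with a log2 fold change of -0.81. CML replicate 1 lay within the naive range, and the values of the other CML libraries stood on 2 and 5 reads.

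A single library set several estimates of complex I. Ndufb5, whose coding exons overlap Mrpl47 on the other strand, measured 35.9, 2.73 and 28.4 RPKM in CML and 47.7, 32.2 and 37.4 in naive libraries, so that the lowest log2 fold change of all members, -1.31, became -0.27 without CML replicate 2. Ndufa1, a subunit needed for assembly of the membrane arm, measured 85.7, 5.66 and 129 RPKM in CML and 44.3, 53.0 and 41.9 in naive libraries. CML replicates 1 and 3 were the highest and replicate 2 the lowest of all libraries. The low value was 1 read, with a counting interval of 0.14 to 31.6 RPKM. Its log2 fold change of -0.16 turned to 1.17 without that library. CML replicate 2 was the lowest library for 16 of the 36 complex I genes, and for 6555 of all 13923 features. The mean log2 level of the complex was 5.27, 4.70 and 5.41 in CML and 5.21, 5.41 and 5.09 in naive replicates 1 to 3. Ndufa1, like Ndufb3, falls outside the naming rule and was chosen after its values were seen.

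In complex II, succinate dehydrogenase, none of the 4 genes differed beyond the spread between libraries, with log2 fold changes of -0.23 to 0.14 and adjusted p-values of 0.863 to 0.945 in limma. The catalytic subunits were the steadiest. Sdha, the flavoprotein, measured 114, 104 and 130 RPKM in CML and 137, 114 and 117 in naive libraries, and Sdhb, the iron-sulfur subunit, 55.2, 72.4 and 87.6 in CML and 52.0, 81.8 and 61.0 in naive libraries. The groups overlapped for both, and the 95% intervals of the log2 fold change lay between -1 and 1. The membrane anchors were less abundant and less certain. Sdhc measured 18.5, 2.51 and 19.7 RPKM in CML and 7.63, 14.5 and 14.5 in naive libraries, and Sdhd 12.9, 5.03 and 17.3 in CML and 14.5, 9.50 and 14.3 in naive libraries. CML replicate 2 was lowest for both anchors, where Sdhd rested on 2 reads. Without it the log2 fold changes of Sdhc and Sdhd turned from -0.18 and -0.23 to 0.66 and 0.23, and the median of the complex from -0.13 to 0.18. Sdhd is the gene whose window holds letters of NRF1, GABPA, SP1 and ESRRA.

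Complex III, the cytochrome bc1 complex, had no gene past any of the thresholds, and its 8 log2 fold changes lay between -0.45 and 0.29 around a median of -0.08. Uqcrh, the acidic hinge protein, was the most abundant at 189 ± 41.5 RPKM in naive and 185 ± 9.87 in CML Tregs (SD, n = 3), and its log2 fold change was -0.01 (95% interval -0.43 to 0.41). The core proteins went in different directions. Uqcrc1 measured 66.8, 54.3 and 80.0 RPKM in CML and 63.4, 51.7 and 58.6 in naive libraries, with 2 of 3 CML libraries above all naive libraries. Uqcrc2 measured 43.3, 13.3 and 37.6 RPKM in CML and 45.9, 33.2 and 37.9 in naive libraries, and its log2 fold change of -0.45 became 0.06 without CML replicate 2. Uqcrfs1, the Rieske iron-sulfur protein, measured 26.4, 40.9 and 47.2 RPKM in CML and 40.2, 44.1 and 39.4 in naive libraries. CML libraries stood on both sides of the narrow naive range. The small subunits Uqcr11 and Uqcrq had log2 fold changes of 0.29 and 0.08, and Uqcr10 one of -0.21, all with overlapping groups.

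Complex IV, cytochrome c oxidase, was the only complex with a median log2 fold change above 0 in the values as deposited, at 0.19 over 12 tested genes, and it stayed above 0 under each other scaling (0.23 to 0.29) and with each library left out, where it fell to 0.083 without naive replicate 3 and to 0.107 without CML replicate 3. No gene was called, and no p was attached to the median. The mean log2 level of the complex was 6.138, 5.898 and 6.256 in CML and 5.991, 6.125 and 5.891 in naive replicates 1 to 3. The groups overlapped, and their means differed by 0.095, less than the SD of either group, 0.182 in CML and 0.118 in naive Tregs. The median RPKM of the 12 genes went the other way, at 54.5 in CML and 64.3 in naive Tregs. Cox4i1 and Cox5a, which surround the mitochondrially encoded core and bind regulators, had log2 fold changes of 0.14 and 0.35. Cox5a measured 54.2, 49.2 and 61.5 RPKM in CML and 38.9, 51.2 and 39.1 in naive libraries. Naive replicate 2 alone reached the CML range. Cox5b, a zinc-binding subunit, measured 39.1, 46.4 and 39.3 RPKM in CML and 38.1, 34.5 and 32.9 in naive libraries. The groups did not overlap, by a margin smaller than the SD of either group, and the log2 fold change was 0.23 (95% interval -0.21 to 0.68). With libraries set to the same 75th percentile or quantile normalized the Cox5b groups overlapped, and at the same sum without the highest features they did not.

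Cox7a2, the isoform of subunit VIIa found in most tissues, had the largest log2 fold change of the complex. It measured 46.4, 14.4 and 66.0 RPKM in CML and 10.7, 25.3 and 20.8 in naive libraries. CML replicates 1 and 3 exceeded every naive library, and CML replicate 2, at 3 reads, within the naive range. The log2 fold change was 0.95 (95% interval -0.34 to 2.25, adjusted p = 0.614 in limma) and 1.58 without CML replicate 2. Cox8a lay at the other end, with 63.2, 28.7 and 35.4 RPKM in CML and 68.8, 63.5 and 57.6 in naive libraries. CML replicate 1 lay within the naive range, and the log2 fold change was -0.64 (95% interval -1.32 to 0.03, adjusted p = 0.535 in limma). Cox6b1 followed at -0.32 with overlapping groups.

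Complex V, ATP synthase, had a median log2 fold change of -0.10 over 18 tested genes. In the values as deposited 2 of them (11.1%) lay above all naive libraries, where 4.84% of all features did so, and 3 (16.7%) lay below, where 12.2% did so. The catalytic head was steady. Atp5a1 measured 178, 142 and 184 RPKM in CML and 167, 185 and 165 in naive libraries. Atp5b measured 149, 149 and 136 RPKM in CML and 138, 134 and 119 in naive libraries. Both rested on at least 196 reads in every library, their groups overlapped, and their log2 fold changes were -0.04 (95% interval -0.41 to 0.33) and 0.15 (-0.18 to 0.48). The central stalk genes Atp5c1, Atp5d and Atp5e had log2 fold changes of -0.11, 0.29 and 0.42. Atp5e, the epsilon subunit, measured 96.7, 98.6 and 195 RPKM in CML and 93.3, 94.6 and 87.1 in naive libraries. All CML values lay above all naive values, CML replicates 1 and 2 by less than the SD of the naive group and CML replicate 3 by far. The value of CML replicate 2 rested on 13 reads. Its counting interval of 52.5 to 169 RPKM and that of CML replicate 1, 79.9 to 116, cover all naive values. That of CML replicate 3, 153 to 246 RPKM, lies above them.

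The peripheral stalk, which holds the catalytic head in place, did not move as a unit. Atp5f1, subunit b, measured 77.9, 56.3 and 92.5 RPKM in CML and 45.5, 55.3 and 48.7 in naive libraries. Each CML value exceeded each naive value as deposited and under each of the 3 other scalings, with a log2 fold change of 0.57 (95% interval 0.05 to 1.08, adjusted p = 0.482 in limma). The value of CML replicate 2 rested on 36 reads, and its counting interval of 39.4 to 78.0 RPKM covers the naive range. Atp5h, subunit d, measured 25.1, 27.3 and 36.9 RPKM in CML and 50.4, 49.7 and 41.1 in naive libraries. All CML libraries lay below all naive libraries, also under each other scaling, with a log2 fold change of -0.66 (95% interval -1.17 to -0.14, adjusted p = 0.404 in limma). The value of CML replicate 2 rested on 11 reads, and its counting interval of 13.6 to 48.8 RPKM covers naive replicate 3. That of CML replicate 3, 26.5 to 50.1 RPKM, covers naive replicates 2 and 3. Atp5o, the oligomycin sensitivity subunit, measured 30.9, 37.6 and 38.2 RPKM in CML and 48.6, 46.9 and 40.3 in naive libraries. Its groups overlapped once libraries were rescaled. Exons annotated under its name overlap those of Donson and of D430001F17Rik. The gene record under that name, chr16:91684398-91926982, ends short of its promoter window at chr16:91931581-91931880. Whether the overlap falls on the transcript measured was not tested. Atp5j, the coupling factor subunit, was the most abundant member at 220 ± 60.1 RPKM in naive and 231 ± 107 in CML Tregs (SD, n = 3), with a log2 fold change of 0.01.

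Atp5l, a small membrane subunit, measured 9.26, 7.73 and 4.21 RPKM in CML and 15.4, 10.2 and 14.8 in naive libraries. All CML values lay below all naive values, on 2 and 3 reads in CML replicates 2 and 3. Its log2 fold change was -0.88 (95% interval -1.78 to 0.01, adjusted p = 0.522 in limma). The counting interval of CML replicate 2, 0.94 to 27.9 RPKM, covers all naive values.

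**Figure D4:**
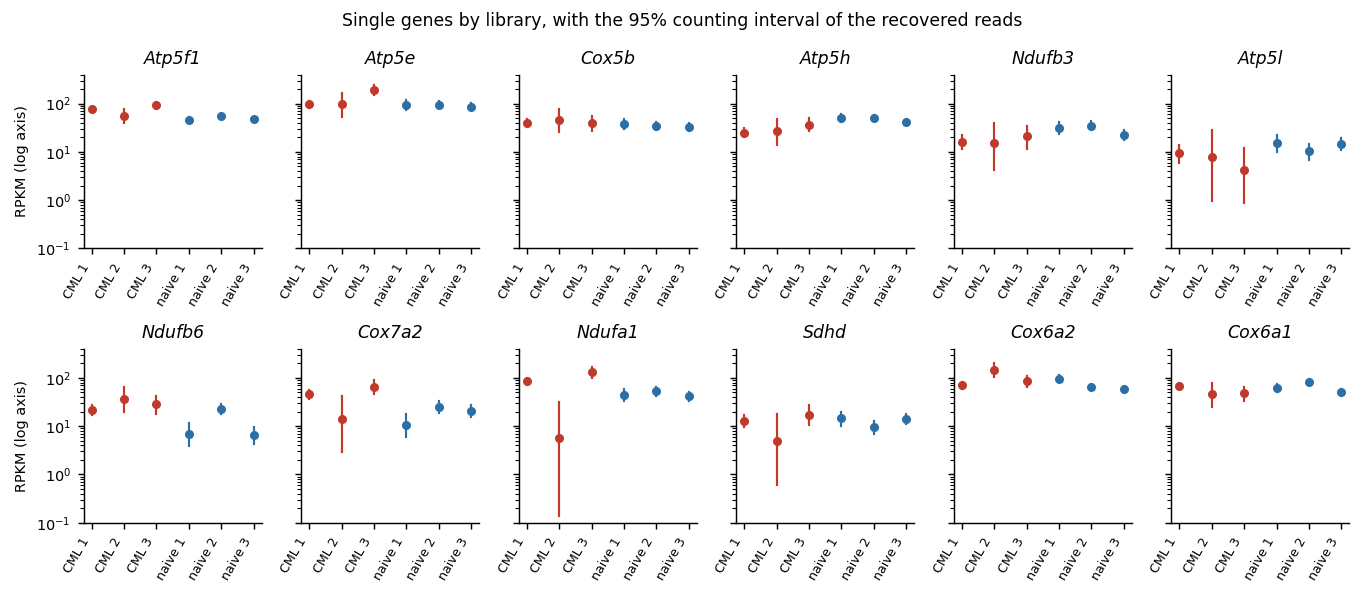
RPKM on a log axis in each of the 3 CML (red) and 3 naive (blue) libraries for 12 genes, with the 95% counting interval of the recovered reads as a line. Atp5f1, Atp5h and Ndufb3 keep the groups apart as points. The interval of CML replicate 2 covers naive values for Atp5f1 and Ndufb3. For Atp5h it covers naive replicate 3, and the interval of CML replicate 3 covers naive replicates 2 and 3. Ndufa1, with 1 read in CML replicate 2, has an interval there that ends below all naive points.

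A difference in the use of subunit isoforms was not detectable in the 3 pairs that could be tested with 3 libraries a group. Of the members with a tissue-restricted counterpart, Cox4i2, Cox7b2, Cox8b, Cox8c and Ndufa4l2 were listed at 0 in all 6 libraries. Cox6b2 and Cox7a1, the testis isoform of subunit VIb and the muscle isoform of subunit VIIa, had reads in naive replicate 3 alone, 2 and 4 of them. Cox6a2, known as the heart and muscle isoform of subunit VIa, was the exception. It measured 70.6, 148 and 84.8 RPKM in CML and 96.4, 64.8 and 57.9 in naive libraries, beside 68.2, 46.2 and 47.7 and 63.1, 82.1 and 50.5 for Cox6a1, the isoform of other tissues. Cox6a2 made up 50.9%, 76.2% and 64.0% of the summed RPKM of the pair in CML and 60.4%, 44.1% and 53.4% in naive libraries. The means of 63.7% ± 12.6 and 52.6% ± 8.19 (SD, n = 3) gave a 2-sided exact permutation p = 0.3, adjusted p = 0.5 over 3 pairs, where 3 against 3 cannot go below 0.1. The difference was 11.02 percentage points, and it lay between 4.78 points without CML replicate 2 and 17.4 points without CML replicate 1.

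Atp5g1, Atp5g2 and Atp5g3 encode the same c subunit of the membrane rotor with different import sequences, so reads of the shared part can be split between them. Atp5g3 led with 120, 22.7 and 30.5 RPKM in CML and 115, 73.8 and 70.8 in naive libraries. CML replicates 2 and 3 lay below all naive libraries and CML replicate 1 above them, and the log2 fold change was -0.93 (95% interval -2.23 to 0.38). Atp5g1 made up 16.4% ± 12.1 of its sum with Atp5g3 in CML and 9.01% ± 3.10 in naive Tregs (SD, n = 3, exact permutation p = 0.4, adjusted p = 0.5). Atp5g2 made up 14.0% ± 5.48 and 11.2% ± 2.46 (exact permutation p = 0.5, adjusted p = 0.5). Single libraries spanned 3.84% to 27.9% for Atp5g1 in CML Tregs, so the share was not settled within a group.

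Genes that work with the subunits also had no called member, with 0 in each list (limma, adjusted p under 0.05 and a fold of at least 1.5). Of the 13 mitochondrially encoded subunits, 12 (92.3%) had a log2 fold change below 0, where 64.3% of all features did so. Their median of -0.17 is close to that of all features, and 0 passed an unadjusted p under 0.05 with that fold. The mean log2 level over the 13 was 10.38, 9.63 and 9.78 in CML and 9.97, 10.03 and 10.18 in naive replicates 1 to 3. CML replicate 1 was the highest library for 12 of the 13, against 2153 of 13923 features, and CML replicate 2 the lowest for 9, against 6555. Of 42 assembly factors, 1 was higher and 2 lower at the unadjusted p with that fold, where 2.61% and 5.94% of all features were, with a median of -0.36 against -0.18 for all features. Of 28 protein import genes, 0 were higher and 3 (10.7%) lower, around a median of -0.40. The lowest was Tomm5, a small subunit of the outer membrane pore (log2 fold change -2.56, adjusted p = 0.298 in limma). It measured 3.37, 0 and 0 RPKM in CML and 14.8, 5.38 and 7.89 in naive libraries. Its values of 0 stand in CML replicates 2 and 3, the shallowest libraries, where a low level can go unread.

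Of 19 genes for electron carriers and coenzyme Q synthesis, none passed the unadjusted threshold. Cyc1, the cytochrome c1 subunit that the name pattern misses, measured 27.1, 43.2 and 34.9 RPKM in CML and 22.9, 26.6 and 26.3 in naive libraries. Its log2 fold change was 0.44 (95% interval -0.12 to 0.99, adjusted p = 0.592 in limma). All CML values lay above all naive values for Cyc1 alone of the 19 (5.26%), where 4.84% of all features did so. They lay below for 1 of the 19 (5.26%), where 12.2% of all features did so. Cycs, cytochrome c itself, and Ndufab1, the acyl carrier subunit of complex I, had log2 fold changes of 0.20 and -0.44 with overlapping groups. Of 8 tested exchange genes 1 was higher at the unadjusted threshold, where 2.61% of all features were. It was Vdac2, an outer membrane channel, with 37.1, 36.7 and 46.3 RPKM in CML and 29.5, 23.6 and 21.9 in naive libraries (log2 fold change 0.66, adjusted p = 0.396 in limma). Vdac2 alone of the 8 (12.5%) had every CML library above every naive library, where 4.84% of all features did so. Vdac3, its paralog, measured 0.616, 4.24 and 1.03 RPKM in CML and 6.32, 5.88 and 3.97 in naive libraries. CML replicate 2 reached the naive range, and the log2 fold change was -1.29 (adjusted p = 0.526 in limma).

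Of 19 tested regulators of mitochondrial biogenesis, 0 were higher and 2 lower at the unadjusted p with a fold of at least 1.5, where 5.94% of all features were lower. All CML libraries lay below all naive libraries for 5 of them (26.3%), where 12.2% of all features did so, and the median log2 fold change was -0.28. Nrf1, whose letters stood in many member windows, measured 41.4 ± 8.61 RPKM in CML and 38.5 ± 8.19 in naive Tregs (SD, n = 3), a difference within the spread. Tfam, which packages mitochondrial DNA, measured 38.4, 47.6 and 19.5 RPKM in CML and 51.9, 51.6 and 46.5 in naive libraries. CML replicate 2 reached the naive range. Tfb2m, a mitochondrial transcription factor, measured 5.20, 1.30 and 3.40 RPKM in CML and 6.65, 15.7 and 8.73 in naive libraries, without overlap (log2 fold change -1.44, adjusted p = 0.446 in limma). Ppargc1a, the coactivator PGC-1α, was at most 0.546 RPKM in any library and was not tested, while Ppargc1b stood at 6.97 ± 3.48 and 6.61 ± 1.02 RPKM.

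The spread between libraries was wider in the CML group. The SD of the log2 level over 3 libraries was larger in CML than in naive Tregs for 56 of 78 members, with medians of 0.445 and 0.307, and for 10682 of 13923 features, with medians of 0.533 and 0.286. CML replicate 2 held the lowest value of all 6 libraries for 29 of 78 members and for 6555 of 13923 features. CML replicate 3 held the highest for 29 members and for 3668 features. The spread moved with depth. The 43 members with at least 10 recovered reads in every library had median SDs of 0.379 in CML and 0.228 in naive Tregs, and the 18 other members with recovered reads had 0.663 and 0.348. The 43 deeper genes had a median log2 fold change of -0.025, and 28 of them an interval between -1 and 1.

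**Figure D5:**
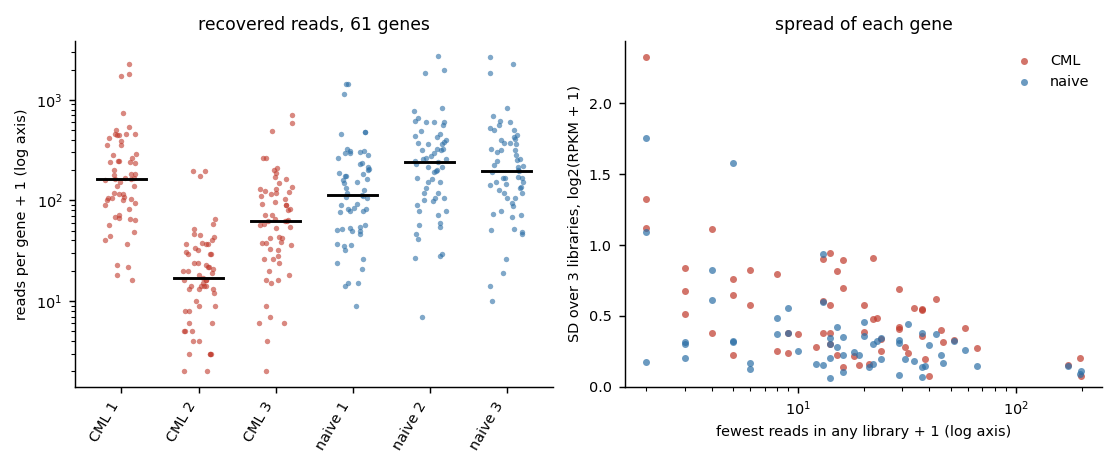
Left, recovered reads per gene plus 1, on a log axis, in each library for the 61 tested genes with recovered reads, with the median as a black bar. Right, SD over the 3 libraries of each group against the fewest reads of the gene in any library plus 1. CML replicate 2 lies about an order of magnitude below CML replicate 1, and the largest SDs belong to genes with few reads.

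Leaving out CML replicate 2 changed which members lay apart. Both remaining CML values exceeded all naive values for 15 of 78 members (19.2%), against 13.9% of all features, and lay below them for 5 (6.41%), against 15.9%. The 15 genes were Ndufs6, Ndufc2, Ndufb7, Ndufa13, Ndufs7, Ndufa1, Ndufv2, Ndufa9, Sdhc, Uqcrc1, Cox7a2, Cox5a, Cox5b, Atp5f1 and Atp5e. They were chosen by their values after the library was left out, and no test was run on them. The median log2 fold change of all members without the library was -0.008, against -0.032 for all features, so the 2 medians lay closer together than with all libraries. The members' median was -0.022 without naive replicate 2, -0.041 without CML replicate 1 and -0.226 without CML replicate 3.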

How the data were processed

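RNA of FACS-purified BM Tregs from 3 CML and 3 naive mice was measured. Libraries were made by the authors with a SMART-Seq v4 low-input kit and read from 1 end on a NextSeq instrument. Reads were assembled with SeqMan NGen 15, and ArrayStar 15 gave the expression values (GRCm38 in the submitters' processing notes). The authors deposited 1 value per feature and library, read here as RPKM, a unit their text does not name. It rests on the values, which fell on whole reads for 72.0% to 75.7% of low values of genes with 1 coding length (10% by chance, tolerance 0.05 reads). This scaling cannot be undone for features whose reads were not recovered. The value 0.001, which marks no reads, was set to 0.

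CML and naive Tregs were compared on the log2(RPKM + 1) scale by limma 3.58.1 (R 4.3.3), with a trended prior variance and no block, for the 13923 features with a mean of at least 1 RPKM, and Benjamini-Hochberg adjustment over all of them. A call needed an adjusted p under 0.05 and a fold of at least 1.5. A fold change on this scale understates the change of low genes. Single shares were compared with exact 2-sided permutation tests. The labels number the replicates and do not say whether mice were paired. Same-numbered libraries did not deviate together (correlations of -0.005, -0.002 and -0.019 for replicates 1 to 3), which cannot exclude a pairing. P-values measure the spread between libraries. As 1 library came from each mouse, the spread between mice cannot be told apart from counting and amplification error.

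Members and lists were chosen with earlier results of these data known. Genes named with values are, for each complex, the 3 highest and 2 lowest log2 fold changes (all of complex II), isoform pairs, the catalytic core and the extremes of the other lists with Cycs, Cyc1, Ndufab1, Ppargc1a, Ppargc1b, Nrf1, Tfam and Lrpprc. Genes named outside this rule were chosen after their values were seen. Not every gene of the rule is given here. Coding lengths, positions and overlaps came from GENCODE M21 and promoter windows from RefSeq on GRCm38.p6, matched by symbol or synonym. The fits were tested on simulated data. Python 3.11.15 with numpy 2.4.6, pandas 2.3.3, scipy 1.17.1 and matplotlib 3.10.9 was used for other steps. Alternatives covered the pseudocount, the filter, the scaling, each library left out, a replicate block, the moderation, library weights and, added after seeing the data, recovered reads in limma's voom.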

Additional observations from a re-analysis of the deposited data

How the results depend on the processing

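No respiratory chain gene was called in any of the 17 other fits, which covered the pseudocount, the filter, the scaling, library weights, no trend, the replicate block, each library left out and, chosen after seeing the data, recovered reads. The median log2 fold change of the members stayed between -0.226 and 0.004. Of the 78 tested members, 35 had a fold change of the same sign in every fit and 43 had the other sign in at least 1, among them Ndufa1, Uqcrh and Atp5j, and the largest of the 43 was 0.761 on the log2 scale (Ndufa4). The count of all genes called depended on the processing. It was 24 as reported, 45 with library weights, 53 after quantile normalization, 53 at the same 75th percentile, 52 at the same sum without the highest features, 11 without a trend, 1 without a filter and 77 of 4468 features with recovered reads. With the replicate number as a block 1 gene was called. Leaving out 1 library gave 0 to 17 calls, with 0 when naive replicate 1, 2 or 3 was left out and 6 without CML replicate 3. The median of complex V moved from -0.097 to between -0.317 and 0.008 when 1 library was left out, and that of complex II to 0.179 without CML replicate 2. Members above all naive libraries numbered 3 as reported and 3 to 15 with 1 library left out, 15 without CML replicate 2, and members below numbered 4 and 5 to 11. Fewer libraries also leave fewer comparisons, so these counts rise by construction. Among all genes, higher and lower calls at an unadjusted p numbered 363 and 827 as reported, 624 and 590 after quantile normalization, which also moved the median of all genes from -0.177 to -0.007, and 677 and 781 without CML replicate 2. The cause of these moves was not tested. Depth limits the short genes most, since 1 read was worth 5.66 RPKM for Ndufa1 in CML replicate 2.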

Other observations

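Other gene lists were compared in the same way and had 0 called genes each (limma, adjusted p under 0.05 and a fold of at least 1.5, with 0.172% of all features called). Of 77 mitochondrial ribosomal protein genes, 5 were higher and 4 lower at an unadjusted p under 0.05 with that fold, around a median log2 fold change of -0.07 that lies near that of the respiratory chain genes. Of 94 cytosolic ribosomal protein genes, 0 were higher and 6 lower, around a median of -0.30. All 3 CML libraries lay below the naive libraries for 20 of them (21.3%), where 12.2% of all features did so. Of 38 proteasome subunits, none passed in either direction, around a median of 0.05. Of 15 S phase genes, 1 was higher and 0 lower, and of 15 G2/M genes 3 were higher and 0 lower, where 2.61% and 5.94% of all features were. The 3 include Cdk1 at 13.5, 10.8 and 28.4 RPKM in CML and 5.17, 8.54 and 3.90 in naive libraries (log2 fold change 1.37, adjusted p = 0.396 in limma). The CML libraries lay above the naive libraries for 3 S phase and 5 G2/M genes, where 4.84% of all features did so, with medians of 0.48 and 0.60. Of the G2/M genes 3 had a log2 fold change below 0, such as Aurkb at -0.62 (adjusted p = 0.82 in limma). The median of all features was -0.177, and no test was run on a list.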
